A study of Ambystoma mexicanum with 9 samples.

Results

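Patterning and lineage transcription factors were followed through spinal cord injury in the axolotl, a salamander that regrows its cord. They were chosen by gene symbol, with earlier results of these data known. The single symbol of each probe set begins with HOXA to HOXD, SOX, PAX, NKX, MEIS, PBX, TBX, GATA, KLF or FOX. Sine oculis homeobox genes (SIX4 here) were taken as well. Each symbol goes on to a family number, and FOXJ1 and KLF6 were left out. This rule took 65 probe sets of 60 genes out of 20035 tested probe sets, of which 10951 carried 1 symbol. Expression was measured on 9 Affymetrix axolotl arrays, each with 150 ng RNA pooled from the tissue of 10 animals of 2 to 3 cm.

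The arrays formed 3 groups of 3. The 0dpi group was uninjured cord, and 1dpi was cord tissue collected 1 day post injury. The 1dpi_IVM group was collected 1 day after injury from animals that received ivermectin, an opener of glycine-gated chloride channels. According to the series text, the central canal was filled with the drug or with water and part of the cord was then cut out. The sample labels call the injury of 1dpi a crush and name no injection for it, and for 1dpi_IVM they name the injection only. Nothing describes an injection in 0dpi, so injection and injury cannot be told apart in a comparison with it. No strain, transgene or age was given for any group, and because animals were pooled, the spread in each test is that among pools and says nothing of single animals.

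These families assign position and cell identity. HOX genes lie in clusters whose order follows the body axis from head to tail, and MEIS and PBX proteins bind DNA together with HOX proteins. PAX, NKX, SOX and FOXA factors divide the neural tube into progenitor domains, with floor plate, motor neuron and interneuron zones. TBX and FOXC factors mark mesoderm, limb and connective tissue fields, GATA factors blood, heart and sensory lineages, and KLF factors act in epithelium, vessels, muscle and early responses to growth factors. The roles given here were worked out mainly in mouse and chick.

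Many of these genes gave weak signals. Values were log2 signals, and the highest of the 3 negative control probe sets had a mean of 3.47 over all 9 arrays. Of the 65 probe sets, 9 (13.8%) had a mean at or below that level, against 7.08% of all tested probe sets, and 29 (44.6%) lay within 1 log2 unit of it or below, against 29.4%. The 9 were FOXA3, FOXN1, FOXO3, FOXP4, GATA4, KLF12, NKX6-2, TBX19 and 1 of the 2 TBX5 probe sets, and for FOXA3, FOXP4, GATA4, TBX19 and that TBX5 probe set every array lay at or below the control level. The weak signals were unevenly spread over the families, with 6 of 7 TBX, 8 of 13 FOX, 7 of 19 HOX, 3 of 10 KLF, 2 of 5 SOX, 1 of 2 NKX, 1 of 2 GATA probe sets and SIX4 near the control level, and none of the MEIS, PBX and PAX probe sets. Signals of different probe sets are not amounts of RNA that can be set against each other, and a weak signal leaves little room for a fall to be seen. Of the genes that mark cord domains, SOX2, SOX3, SOX10, SOX11, PAX2, PAX3, PAX7, NKX2-2 and NKX6-1 were not analysed here, nor were GATA1, GATA2 and KLF1.

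**Figure D1:**
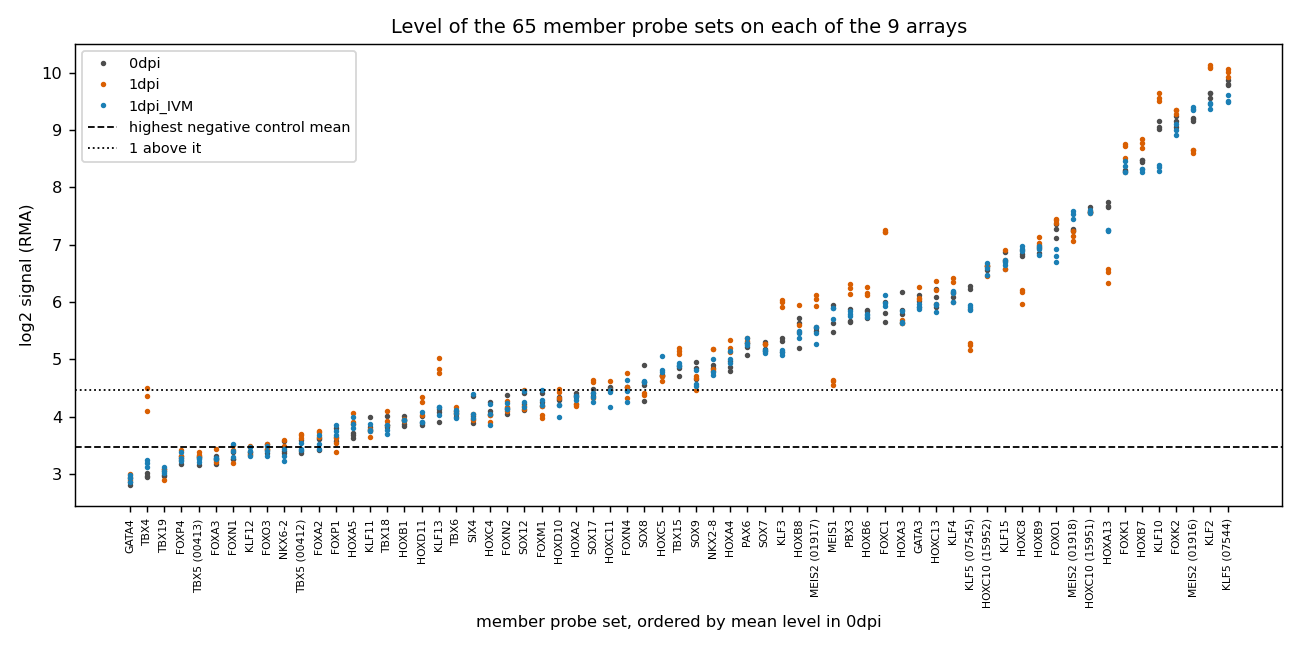
Log2 signal of the 65 probe sets (horizontal axis, ordered by their mean in 0dpi) on each of the 9 arrays, with 1 point per array coloured by group. The dashed line is the highest negative control mean (3.47) and the dotted line lies 1 log2 unit above it, and 29 probe sets had a mean at or below the dotted line.

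One day after injury, 26 of the 65 probe sets differed between 1dpi and 0dpi at an adjusted p below 0.05 in limma, 19 higher and 7 lower. This was 40% of them, against 52.9% of all tested probe sets (24.7% higher and 28.2% lower), so calls were no more frequent here than elsewhere on the array. The largest fitted rises were those of FOXC1, TBX4, KLF13 and KLF3, and the largest falls those of HOXA13, MEIS1, the weaker KLF5 probe set and HOXC8. Among the 36 probe sets over 1 log2 unit above the control level, 20 (55.6%) were called, against 65.4% of all probe sets with such a signal. The median difference of the 65 was 0.07 on the log2 scale and their median absolute difference 0.16, beside 0.21 over all tested probe sets. A change of at least 2-fold with an adjusted p below 0.05 was reached by 4 (6.15%, against 7.12% of all), namely FOXC1 and TBX4 upwards and HOXA13 and MEIS1 downwards, although for TBX4, at the control level in 0dpi, only a rise of at least 1.80-fold can be stated. The 3 arrays of 1dpi and the 3 of 0dpi did not overlap for 31 probe sets (47.7%, against 59.4% of all).

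With ivermectin, 29 of the 65 differed between 1dpi_IVM and 1dpi, 10 higher and 19 lower. This was 44.6%, against 54% of all tested probe sets (29% higher and 25% lower), and 21 of the 36 probe sets with the stronger signals (58.3%, against 66.6%). KLF10, FOXC1, TBX4 and KLF3 were lower with the drug and MEIS1, HOXC8, HOXA13 and 1 MEIS2 probe set were higher. The median difference was -0.08 and the median absolute difference 0.19, beside 0.22 over all tested probe sets. The fitted difference passed the 2-fold limit for MEIS1 upwards and for KLF10, FOXC1 and TBX4 downwards (6.15%, against 7.8% of all), again with a bound of 1.80-fold alone for TBX4, and the groups did not overlap for 34 probe sets (52.3%, against 60.4%). With each array left out in turn the number called higher was 6 to 8 instead of 10, and the number called lower 16 to 23.

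Between 1dpi_IVM and 0dpi, 6 of the 65 were called (9.23%, against 5.6% of all tested probe sets), 2 higher and 4 lower (against 2.26% and 3.34% of all). All 6 were among the 36 with the stronger signals (16.7%, against 7.66%). The 2 higher were probe sets of MEIS2, and the 4 lower were KLF10, HOXA13, FOXO1 and the stronger KLF5 probe set. The calls of both MEIS2 probe sets and of KLF5 were lost in some fits without 1 array. With each array left out in turn, 0 to 1 were called higher and 3 to 5 lower. None reached 2-fold with an adjusted p below 0.05 in limma, against 0.16% of all tested probe sets. An unadjusted p below 0.05 was found for 16, 5 higher and 11 lower, but the share of all tested probe sets with such a p is not given here. The groups did not overlap for 14 probe sets (21.5%, against 23.1% of all). The 3 comparisons share arrays, so each gene's differences below are given side by side and are not separate evidence.

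The split between higher and lower calls depended on how the arrays were scaled. The poly-A spike-ins, RNAs added to each sample before labelling, read 7.54 ± 0.03 in 0dpi, 8.08 ± 0.04 in 1dpi and 7.43 ± 0.05 in 1dpi_IVM (mean ± SD, n = 3). When the arrays were shifted so that these spike-ins were equal, the median of all tested probe sets moved to -0.55 for 1dpi against 0dpi and to 0.65 for 1dpi_IVM against 1dpi. The 65 probe sets then split into 3 higher and 56 lower in the first and 57 higher and 4 lower in the second. Of those called, 5.08% were higher in the first and 93.4% in the second, close to the 6.95% and 94% of all called probe sets. Centring each array on its own median gave 22 higher and 7 lower in the first and 6 higher and 29 lower in the second. The medians of all tested probe sets were then 0.04 and -0.05, and the shares of all called are not given here. FOXC1 and TBX4 kept the direction and the call of both differences under the spike-in scaling, TBX4 by its fitted values. The bound of 1.80-fold for TBX4 holds on the deposited scale only. This scaling moved all differences of a comparison by the same amount, down after injury and up with ivermectin. Falls after injury and rises with ivermectin could therefore only grow, as did those of HOXA13, HOXC8, MEIS1 and MEIS2 probe set axo01916-f_at. KLF10 and KLF3 kept their calls with ivermectin (-0.58 and -0.21) and KLF13 its call after injury (0.29), while the rise of KLF3 (0.16, limma adjusted p = 0.051) and the falls of KLF13 (-0.11, 0.159) and KLF2 (-0.0325, 0.601) with ivermectin were no longer called. The shift also gave a direction to flat signals near the control level, where the negative controls differed by 0.07 and -0.09 on the deposited scale. Counts under equal spike-ins that include such probe sets are therefore partly set by the shift. Directions below are those of the deposited scale, on which the array medians lay between 5.84 and 5.89.

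**Figure D2:**
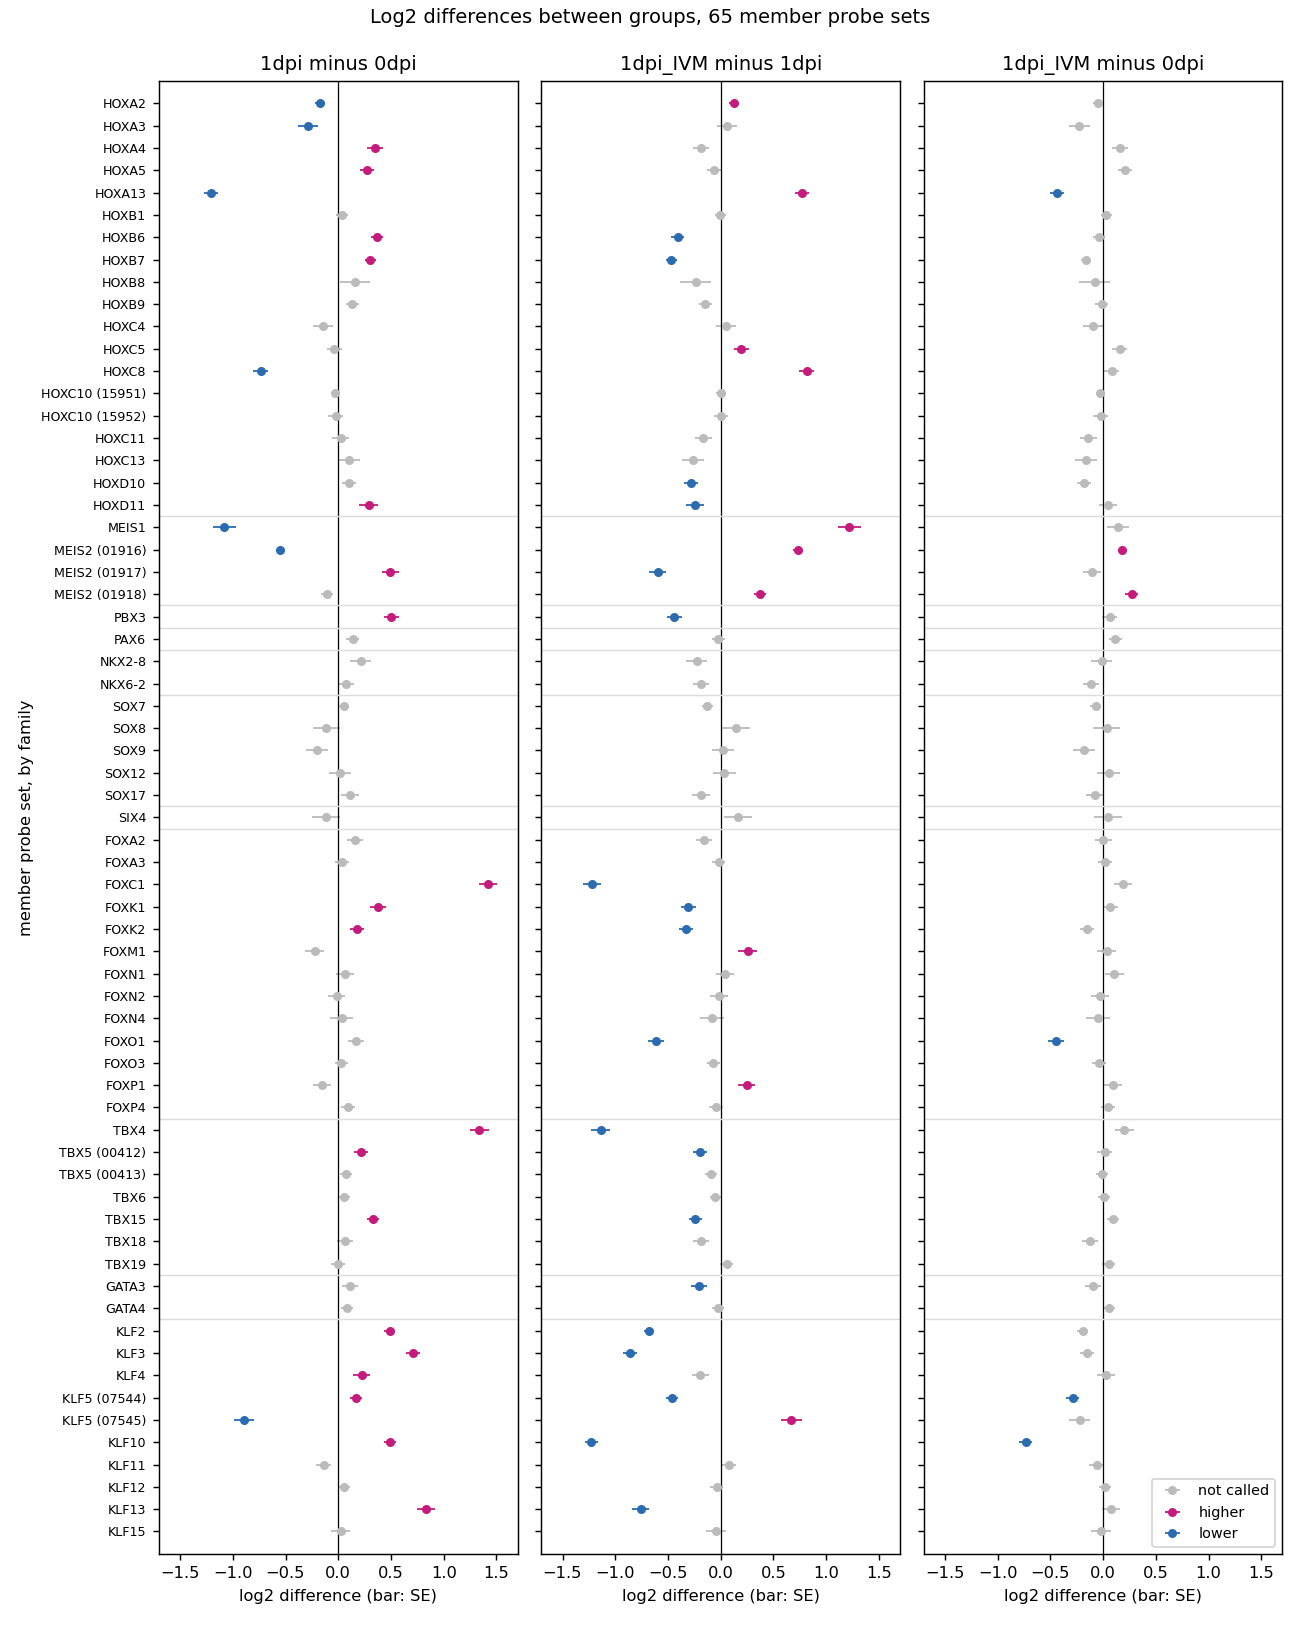
Log2 difference (horizontal axis) of each of the 65 probe sets (rows, grouped by family) for 1dpi minus 0dpi, 1dpi_IVM minus 1dpi and 1dpi_IVM minus 0dpi, with bars for the standard error. Magenta points were called higher and blue points lower at an adjusted p below 0.05 on the deposited scale (19 and 7, 10 and 19, and 2 and 4 probe sets). Equal spike-ins gave 3 and 56 in the first comparison and 57 and 4 in the second. Of all called probe sets, 6.95% and 94% were higher on that scale.

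The HOX probe sets covered 18 genes, with 5 genes of the A cluster, 5 of B, 6 of C and 2 of D. After injury 5 of the 19 HOX probe sets were higher and 4 lower (against 24.7% and 28.2% of all tested probe sets). With ivermectin 4 were higher and 4 lower than in 1dpi (against 29% and 25%). Under equal spike-ins, by contrast, all 19 were lower after injury and all 19 higher with ivermectin. The median HOX differences were 0.03 and -0.07 on the deposited scale and -0.51 and 0.58 with equal spike-ins, close to the medians of all probe sets on that scale (-0.55 and 0.65).

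HOXA13, the last gene of the A cluster and a marker of the distal limb and the tail end of the axis, had the largest fall. Its signals were 7.75, 7.65 and 7.67 in 0dpi, 6.33, 6.53 and 6.58 in 1dpi and 7.26, 7.24 and 7.26 in 1dpi_IVM, so the 3 groups did not overlap and 1dpi_IVM lay between the others. The log2 differences were -1.21 ± 0.07 for 1dpi minus 0dpi (SE, n = 3 arrays a group, a 2.31-fold fall, limma adjusted p = 1.71e-07), 0.77 ± 0.07 for 1dpi_IVM minus 1dpi (adjusted p = 4.07e-06) and -0.44 ± 0.07 for 1dpi_IVM minus 0dpi (adjusted p = 0.00414). HOXC8, a gene of the trunk region, read 6.85, 6.81 and 6.91 in 0dpi, 5.96, 6.18 and 6.22 in 1dpi and 6.92, 6.99 and 6.90 in 1dpi_IVM. It was low in every 1dpi array, while the 0dpi and 1dpi_IVM arrays overlapped. The differences were -0.73 ± 0.07 (adjusted p = 8.94e-06), 0.81 ± 0.07 (adjusted p = 3.72e-06) and 0.08 ± 0.07 (limma adjusted p = 0.624) in the same order.

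In the B cluster HOXB6 and HOXB7 rose by small amounts. HOXB7, a trunk gene, read 8.47, 8.45 and 8.47 in 0dpi, 8.84, 8.70 and 8.78 in 1dpi and 8.27, 8.33 and 8.31 in 1dpi_IVM, which put every 1dpi array above and every 1dpi_IVM array below the uninjured ones. Its differences were 0.31 ± 0.05 after injury (adjusted p = 0.000495), -0.47 ± 0.05 with ivermectin (adjusted p = 2.11e-05) and -0.16 ± 0.05 for 1dpi_IVM minus 0dpi (limma adjusted p = 0.105). HOXB6 read 5.73, 5.85 and 5.86 in 0dpi, 6.12, 6.15 and 6.27 in 1dpi and 5.78, 5.79 and 5.74 in 1dpi_IVM, with 1dpi above the overlapping other groups. It rose by 0.37 (adjusted p = 0.000357) and was lower with ivermectin by a log2 difference of -0.41 (limma adjusted p = 0.000157). The RefSeq annotation of the axolotl genome (assembly UKY_AmexF1_1) lists HOXB9, HOXB8, HOXB7, HOXB3 and HOXB6 in this order of their start positions. HOXB3 falls out of number order there, and the reason was not examined. HOXB8 and HOXB9 differed by 0.16 ± 0.14 and 0.13 ± 0.06 after injury and by -0.24 ± 0.14 and -0.15 ± 0.06 with ivermectin. Neither was called (adjusted p = 0.0667 to 0.394 in limma). The rise of HOXB6 and HOXB7 turned to a difference of -0.18 and -0.24 with equal spike-ins, and their fall with ivermectin to 0.24 and 0.18.

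In the A cluster the calls of the measured genes went both ways. HOXA2, a gene of the hindbrain, read 4.34 to 4.42 in 0dpi, 4.18 to 4.23 in 1dpi and 4.29 to 4.36 in 1dpi_IVM, with a difference of -0.17 ± 0.05 after injury (limma adjusted p = 0.0105). HOXA3 read 5.79, 5.86 and 6.17 in 0dpi and 5.63, 5.69 and 5.64 in 1dpi, a difference of -0.28 ± 0.10 (limma adjusted p = 0.0303) that was no longer called without 0dpi replicate 3 (-0.17, adjusted p = 0.0889), 1dpi replicate 1 (0.073), 1dpi replicate 2 (0.0541) or 1dpi replicate 3 (0.0729). HOXA4 and HOXA5 went the other way, at 4.80, 4.98 and 4.86 against 5.33, 5.21 and 5.14 for HOXA4 and 3.68, 3.63 and 3.72 against 3.91, 4.07 and 3.88 for HOXA5. Both were above 0dpi on every 1dpi array, with differences of 0.35 ± 0.08 (adjusted p = 0.00294) and 0.28 ± 0.07 (limma adjusted p = 0.006), and with equal spike-ins these became -0.20 and -0.27. HOXA2 and HOXA5 lay within 1 log2 unit of the negative control level.

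With ivermectin HOXA2 was 0.13 ± 0.05 above 1dpi (adjusted p = 0.0447) and HOXC5, at 4.72, 4.71 and 4.62 in 1dpi and 5.05, 4.78 and 4.81 in 1dpi_IVM, 0.20 ± 0.07 above it (limma adjusted p = 0.0426). Neither call was firm. The HOXA2 call was lost without any 1 array other than 1dpi_IVM replicate 1 (adjusted p = 0.0522 to 0.126), and the HOXC5 call without any 1 array other than 1dpi_IVM replicates 2 and 3 (0.0551 to 0.131). HOXD10 and HOXD11, genes of the lumbar cord, were lower with ivermectin, by log2 differences of -0.28 ± 0.07 (adjusted p = 0.00551) and -0.24 ± 0.09 (limma adjusted p = 0.0379). HOXD11 read 3.85, 4.01 and 3.90 in 0dpi, 4.25, 4.02 and 4.35 in 1dpi and 3.90, 3.91 and 4.08 in 1dpi_IVM, and its arrays in 1dpi and 1dpi_IVM overlapped. Its rise of 0.29 after injury (limma adjusted p = 0.0183) was not called without 0dpi replicate 1 (0.0613), 1dpi replicate 1 (0.0565) or 1dpi replicate 3 (0.0729), and its fall with ivermectin was not called when replicate 1 (0.102) or 3 (0.14) of 1dpi or replicate 1 (0.112) or 2 (0.111) of 1dpi_IVM was left out. Both HOXD signals lay near the control level, and with equal spike-ins the 2 genes were 0.37 and 0.40 higher with ivermectin.

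The posterior C cluster showed small differences. Both probe sets of HOXC10, a gene of lumbar motor neurons, differed by -0.03 after injury and by 0.00 with ivermectin (SE 0.05 and 0.07). The stronger read 7.58 to 7.65 in 0dpi, 7.55 to 7.60 in 1dpi and 7.55 to 7.61 in 1dpi_IVM. HOXC13, the last gene of the cluster, read 5.91, 6.08 and 6.23 in 0dpi, 6.21, 6.36 and 5.97 in 1dpi and 5.96, 5.83 and 5.94 in 1dpi_IVM, and its difference with ivermectin of -0.27 ± 0.10 did not pass (limma adjusted p = 0.0536). HOXB1, HOXC4 and HOXC11 lay near the control level and were called in no comparison. With equal spike-ins these genes too were lower after injury and higher with ivermectin, as were all the HOX probe sets.

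**Figure D3:**
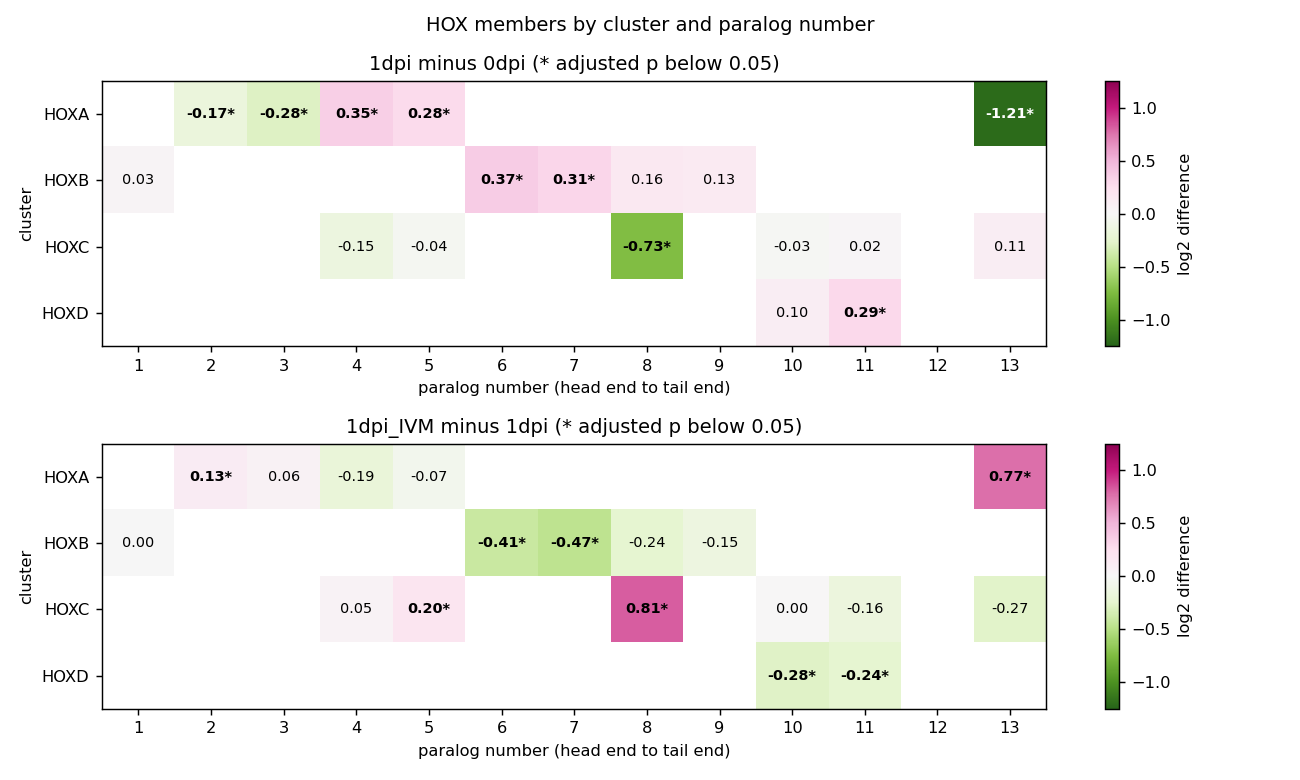
Log2 differences of the 18 HOX genes by cluster (rows) and paralog number (columns, head end to tail end) for 1dpi minus 0dpi (top) and 1dpi_IVM minus 1dpi (bottom), with asterisks at an adjusted p below 0.05 and the mean of both probe sets shown for HOXC10. HOXA13 and HOXC8 stand out at -1.21 and -0.73 after injury and 0.77 and 0.81 with ivermectin, on the deposited scale, and empty squares hold no probe set.

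Among the HOX cofactors MEIS1 had the largest differences after injury and with ivermectin. MEIS1 read 5.63, 5.49 and 5.96 in 0dpi, 4.63, 4.64 and 4.56 in 1dpi and 5.70, 5.90 and 5.90 in 1dpi_IVM, so 1dpi lay below both other groups and these overlapped. The differences were -1.08 ± 0.11 after injury (a 2.11-fold fall, limma adjusted p = 1.26e-05), 1.22 ± 0.11 with ivermectin (2.33-fold higher than 1dpi, adjusted p = 4.46e-06) and 0.14 ± 0.11 between 1dpi_IVM and 0dpi (adjusted p = 0.555). Of the 4 MEIS probe sets 2 were lower and 1 higher after injury (against 28.2% and 24.7% of all tested probe sets), and 3 were higher and 1 lower with ivermectin (against 29% and 25%). With equal spike-ins the 1 that went against the others was no longer called.

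The 3 probe sets of MEIS2, a factor of neural and limb fields, disagreed. The strongest, axo01916-f_at, read 9.19, 9.16 and 9.22 in 0dpi, 8.65, 8.66 and 8.61 in 1dpi and 9.36, 9.35 and 9.40 in 1dpi_IVM, with 1dpi lowest and 1dpi_IVM highest. Its differences were -0.55 ± 0.04 (adjusted p = 2.69e-06), 0.73 ± 0.04 (adjusted p = 3.01e-07) and 0.18 ± 0.04 (limma adjusted p = 0.0443) for injury, ivermectin and 1dpi_IVM minus 0dpi. The probe set axo01917-f_at ran the opposite way, at 5.56, 5.49 and 5.57 in 0dpi, 6.05, 6.12 and 5.93 in 1dpi and 5.26, 5.57 and 5.47 in 1dpi_IVM. It rose by 0.49 after injury (adjusted p = 0.000473) and was lower with ivermectin by a difference of -0.60 ± 0.08 (limma adjusted p = 0.000113), but with equal spike-ins these were -0.05 and 0.05. The probe set axo01918-f_at read 7.24, 7.27 and 7.26 in 0dpi, 7.24, 7.06 and 7.15 in 1dpi and 7.54, 7.58 and 7.45 in 1dpi_IVM. It was not called after injury (-0.11 ± 0.06, limma adjusted p = 0.154) and was higher with ivermectin by 0.38 ± 0.06 (adjusted p = 0.000294). Its difference between 1dpi_IVM and 0dpi was 0.27 ± 0.06 (limma adjusted p = 0.0248), a call lost without any 1 array of 0dpi (0.0687 to 0.0734) or without 1dpi_IVM replicate 1 (0.0725) or 2 (0.0991). The same call of axo01916-f_at was lost without any 1 of the 9 arrays (0.055 to 0.146). Which transcripts of MEIS2 the 3 probe sets read is not given in the sources used here.

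PBX3, the other HOX cofactor measured, read 5.88, 5.66 and 5.66 in 0dpi, 6.15, 6.32 and 6.25 in 1dpi and 5.79, 5.84 and 5.76 in 1dpi_IVM, above both other groups in 1dpi. It rose by 0.50 ± 0.07 (adjusted p = 0.000168) and was lower with ivermectin by a difference of -0.44 ± 0.07 (limma adjusted p = 0.000408), and with equal spike-ins these became -0.04 and 0.21. PBX3 moved against MEIS1 on the deposited scale.

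**Figure D4:**
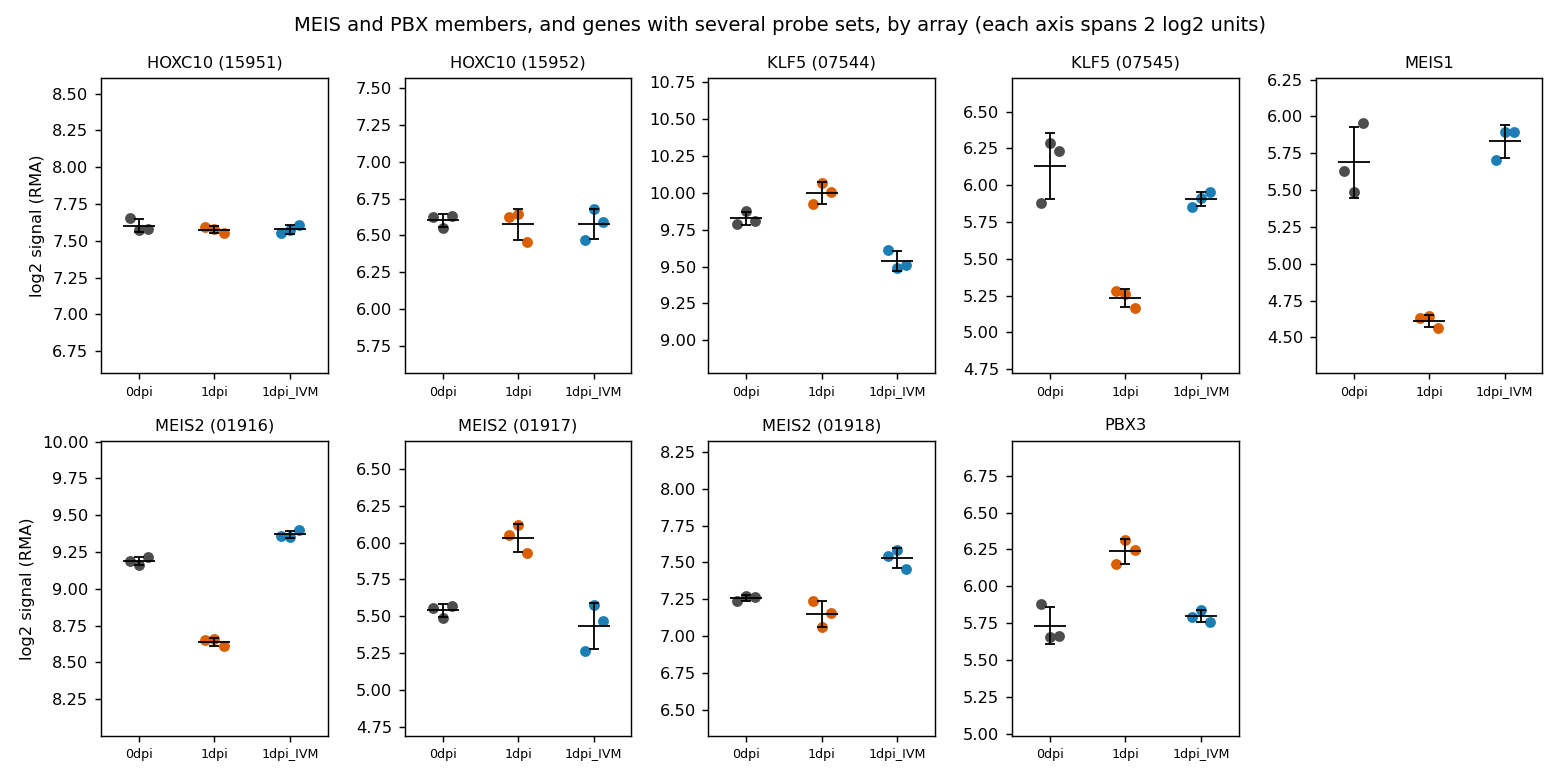
Log2 signals (vertical axes, each spanning 2 log2 units) of MEIS1, PBX3 and the probe sets of HOXC10, KLF5 and MEIS2 on each array, with 1 point per array and a line and bar for the mean and SD of 3 arrays. The 2 HOXC10 probe sets are level across the groups, whereas those of KLF5 and MEIS2 include pairs that run in opposite directions.

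None of the 5 SOX, 2 NKX, 1 PAX probe sets and SIX4 was called in any comparison in limma on the deposited scale. An unadjusted p below 0.05 was found for 3 in 1 comparison (SOX7, NKX2-8 and NKX6-2, lower with ivermectin). With equal spike-ins all 9 were lower after injury and higher with ivermectin, as most of the array was. For those near the control level, such as NKX6-2 and SIX4, the shift alone gives a flat signal these directions. Median centring called PAX6 higher after injury (0.17, limma adjusted p = 0.0471) and SOX7, SOX17, NKX2-8 and NKX6-2 lower with ivermectin (adjusted p = 0.0205 to 0.0425), and another quantile step called PAX6 (0.0438) and SOX7 (0.0214). PAX6, which sets ventral progenitor domains of the cord, read 5.29, 5.07 and 5.22 in 0dpi, 5.37, 5.29 and 5.33 in 1dpi and 5.26, 5.38 and 5.29 in 1dpi_IVM, with a difference of 0.14 ± 0.06 after injury (limma adjusted p = 0.0995) and -0.02 ± 0.06 with ivermectin. SOX9, a factor of neural stem cells, glia and cartilage, read 4.96, 4.85 and 4.65 in 0dpi, 4.68, 4.47 and 4.71 in 1dpi and 4.54, 4.58 and 4.82 in 1dpi_IVM. The groups overlapped, with differences of -0.20 ± 0.10 (adjusted p = 0.124) and 0.02 ± 0.10 (limma adjusted p = 0.877).

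SOX7, a factor of blood vessel endothelium, read 5.30, 5.15 and 5.19 in 0dpi, 5.27, 5.26 and 5.27 in 1dpi and 5.10, 5.17 and 5.15 in 1dpi_IVM, and its 1dpi_IVM arrays lay below those of 1dpi without passing the test (-0.13 ± 0.05, limma adjusted p = 0.0602). The other SOX members differed by -0.11 (SOX8), 0.02 (SOX12) and 0.11 (SOX17) after injury, and by 0.14, 0.03 and -0.19 with ivermectin. NKX2-8 read 4.90, 4.80 and 4.85 in 0dpi, 5.18, 5.17 and 4.84 in 1dpi and 4.78, 5.01 and 4.73 in 1dpi_IVM, with 2 of 3 arrays of 1dpi above all others. Its differences of 0.21 ± 0.10 and -0.23 ± 0.10 did not pass (adjusted p = 0.0991 and 0.0819 in limma). NKX6-2 of the ventral cord, FOXA2 of the floor plate and notochord, and SIX4 of muscle and sensory placodes lay near the control level, at 3.36 to 3.57, 3.41 to 3.63 and 3.90 to 4.37 in 0dpi, where a fall would hardly be seen. At these signals the SE of a difference ran from 0.05 for SOX7 to 0.13 for SOX8 and SIX4.

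FOXC1, a factor of somite and connective tissue precursors, had the largest fitted rise, although that of TBX4 is known only as a lower bound. It read 5.66, 5.81 and 6.01 in 0dpi, 7.23, 7.26 and 7.23 in 1dpi and 5.93, 5.99 and 6.13 in 1dpi_IVM, so that all 3 arrays of 1dpi lay over 1 log2 unit above every other array, and the other groups overlapped. The differences were 1.42 ± 0.09 after injury (2.67-fold, limma adjusted p = 3.22e-07), -1.22 ± 0.09 with ivermectin (2.34-fold lower than 1dpi, adjusted p = 7.98e-07) and 0.19 ± 0.09 between 1dpi_IVM and 0dpi (adjusted p = 0.267). Of the 13 FOX probe sets 3 were higher and none lower after injury in limma (FOXM1 at an unadjusted p below 0.05), against 24.7% and 28.2% of all tested probe sets. With ivermectin 2 were higher and 4 lower (against 29% and 25%), but with equal spike-ins FOXC1 alone was higher after injury (11 lower) and alone was lower with ivermectin (11 higher).

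FOXO1, a factor of insulin signalling that is active when this signal is low, differed mainly with ivermectin. It read 7.11, 7.28 and 7.37 in 0dpi, 7.43, 7.39 and 7.45 in 1dpi and 6.92, 6.81 and 6.69 in 1dpi_IVM, with all 1dpi_IVM arrays below the rest. The difference to 1dpi was -0.61 ± 0.08 (adjusted p = 6.48e-05) and to 0dpi -0.44 ± 0.08 (adjusted p = 0.00841), whereas 1dpi minus 0dpi was 0.17 ± 0.08 (limma adjusted p = 0.0902). With equal spike-ins the difference to 1dpi became 0.03. FOXK1, which keeps muscle precursors proliferating, read 8.31, 8.29 and 8.28 in 0dpi, 8.52, 8.76 and 8.72 in 1dpi and 8.46, 8.37 and 8.26 in 1dpi_IVM. It rose by 0.38 ± 0.07 (adjusted p = 0.00141) and was lower with ivermectin by a difference of -0.31 ± 0.07 (limma adjusted p = 0.00464), with the opposite signs under equal spike-ins (-0.17 and 0.34).

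Its close relative FOXK2 read 9.16, 9.24 and 9.06 in 0dpi, 9.29, 9.35 and 9.35 in 1dpi and 9.10, 9.0 and 8.91 in 1dpi_IVM. The fall with ivermectin was -0.33 ± 0.07 (limma adjusted p = 0.00165), which became 0.32 with equal spike-ins. The difference after injury of 0.18 ± 0.07 (limma adjusted p = 0.0447) became -0.37 with equal spike-ins and was not called without 0dpi replicate 1 or 3, any 1 array of 1dpi or 1dpi_IVM replicate 2 (0.0536 to 0.158). FOXM1, which drives genes of mitosis, and FOXP1, a factor of motor neuron columns, were 0.26 ± 0.09 and 0.25 ± 0.08 higher with ivermectin than in 1dpi (adjusted p = 0.0339 and 0.026 in limma), both near the control level. FOXM1 lost its call when either of 1dpi replicates 1 (0.0868) and 2 (0.114) or of 1dpi_IVM replicates 2 (0.0628) and 3 (0.125) was left out, and FOXP1 lost it when 1dpi replicate 2 (0.101) or either of 1dpi_IVM replicates 1 (0.0567) and 2 (0.0946) was left out. The remaining 7 FOX members, among them FOXO3 and FOXN4, were called in no comparison.

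TBX4, the T-box factor of hindlimb and lung fields, was measured at a low signal. It read 3.02, 2.95 and 2.97 in 0dpi, 4.10, 4.36 and 4.50 in 1dpi and 3.11, 3.19 and 3.24 in 1dpi_IVM. All arrays of 0dpi and 1dpi_IVM lay at or below the negative control level of 3.47 and all of 1dpi above it, so only a bound can be given. Against that level TBX4 was at least 1.80-fold higher in 1dpi than in either other group on the deposited scale. The fitted log2 differences were 1.34 ± 0.09 (adjusted p = 6.51e-07) and -1.14 ± 0.09 (limma adjusted p = 1.88e-06). TBX15, a factor of skin and limb mesenchyme, read 4.88, 4.85 and 4.71 in 0dpi, 5.20, 5.09 and 5.15 in 1dpi and 4.94, 4.89 and 4.89 in 1dpi_IVM. It rose by 0.33 ± 0.06 (adjusted p = 0.000625) and was lower with ivermectin by a difference of -0.24 ± 0.06 (limma adjusted p = 0.00488), which became -0.21 and 0.41 with equal spike-ins.

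Of the 7 TBX probe sets 3 were higher after injury (against 24.7% of all tested probe sets) and 3 were lower with ivermectin (against 25%), in limma and with no TBX call the other way at an unadjusted p below 0.05. With equal spike-ins TBX4 alone kept these directions, by its fitted values, and the other 6 took the opposite ones. The third of the 3 was TBX5 probe set axo00412-f_at, near the control level (3.37 to 3.60 in 0dpi and 3.63 to 3.69 in 1dpi). Its differences were 0.21 ± 0.07 and -0.20 ± 0.07 (adjusted p = 0.0217 and 0.0282 in limma). The other probe set of TBX5, which marks the forelimb field and heart, was not called. GATA3, a factor of ventral interneurons and of T cells, read 6.01, 6.13 and 5.91 in 0dpi, 6.26, 6.05 and 6.07 in 1dpi and 5.87, 5.91 and 5.97 in 1dpi_IVM, and its difference with ivermectin of -0.21 ± 0.08 (limma adjusted p = 0.039) was lost when replicate 1 of 0dpi (0.051), of 1dpi (0.137) or of 1dpi_IVM (0.11) or replicate 2 of 1dpi_IVM (0.0878) was left out, and it became 0.44 with equal spike-ins. GATA4, of heart and gut, lay below the control level on every array.

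Of the 10 KLF probe sets 6 were higher and 1 lower after injury (against 24.7% and 28.2% of all tested probe sets) and 1 was higher and 5 lower with ivermectin (against 29% and 25%), but with equal spike-ins 1 was higher and 6 lower after injury and 6 were higher and 2 lower with ivermectin. KLF10, induced early by TGF-beta, had with FOXC1 the largest fitted falls with ivermectin. It read 9.01, 9.16 and 9.06 in 0dpi, 9.50, 9.64 and 9.56 in 1dpi and 8.36, 8.28 and 8.39 in 1dpi_IVM, and the 3 groups did not overlap. The differences were 0.49 ± 0.06 after injury (adjusted p = 5.51e-05), -1.23 ± 0.06 with ivermectin (2.34-fold lower than 1dpi, limma adjusted p = 5.94e-08) and -0.74 ± 0.06 for 1dpi_IVM minus 0dpi (1.66-fold lower, adjusted p = 7.5e-05). The rise after injury became -0.06 with equal spike-ins.

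KLF2, a factor of vessel endothelium and resting lymphocytes, read 9.56, 9.65 and 9.65 in 0dpi, 10.09, 10.14 and 10.10 in 1dpi and 9.37, 9.47 and 9.45 in 1dpi_IVM. Every 1dpi array was highest and every 1dpi_IVM array lowest. The differences were 0.49 ± 0.05 (adjusted p = 1.63e-05), -0.68 ± 0.05 (adjusted p = 1.2e-06) and -0.19 ± 0.05 (limma adjusted p = 0.0555), the first of which became -0.06 and the second -0.0325 with equal spike-ins, neither of them called (limma adjusted p = 0.352 and 0.601). KLF3, a repressor in muscle, fat and blood cells, read 5.13, 5.31 and 5.37 in 0dpi, 5.92, 5.99 and 6.03 in 1dpi and 5.13, 5.07 and 5.17 in 1dpi_IVM, with 1dpi above the overlapping other groups. It rose by 0.71 ± 0.07 (adjusted p = 8.72e-06) and was lower with ivermectin by a difference of -0.86 ± 0.07 (limma adjusted p = 1.84e-06). KLF13, at 3.91, 4.08 and 4.14 in 0dpi, 5.02, 4.77 and 4.84 in 1dpi and 4.02, 4.17 and 4.16 in 1dpi_IVM, differed by 0.83 ± 0.08 (adjusted p = 1.21e-05) and -0.76 ± 0.08 (limma adjusted p = 2.17e-05). Its 0dpi and 1dpi_IVM arrays lay near the control level, and with equal spike-ins KLF3 differed by 0.16 and -0.21 and KLF13 by 0.29 and -0.11, of which the first and the last were not called (limma adjusted p = 0.051 and 0.159).

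KLF4, a factor of epithelial differentiation and of pluripotent cells, read 6.18, 6.10 and 6.0 in 0dpi, 6.42, 6.36 and 6.16 in 1dpi and 6.0, 6.17 and 6.19 in 1dpi_IVM, and its groups overlapped. Its rise of 0.22 ± 0.08 (limma adjusted p = 0.0457) was lost without 0dpi replicate 2 (0.0911) or 3 (0.147), either of 1dpi replicates 1 (0.151) and 2 (0.124) or either of 1dpi_IVM replicates 2 (0.0574) and 3 (0.0526), and became -0.33 with equal spike-ins. The 2 probe sets of KLF5, a factor of dividing epithelium and smooth muscle, disagreed. The stronger, axo07544-r_at, read 9.79, 9.88 and 9.81 in 0dpi, 9.92, 10.07 and 10.01 in 1dpi and 9.61, 9.49 and 9.51 in 1dpi_IVM, with differences of 0.17 ± 0.06 (adjusted p = 0.0286), -0.46 ± 0.06 (adjusted p = 6.14e-05) and -0.29 ± 0.06 (limma adjusted p = 0.017). The first was lost without 0dpi replicate 1 (0.0832) or 3 (0.0734) or 1dpi replicate 2 (0.106) or 3 (0.072), the last when replicate 2 of 0dpi (0.0726) or replicate 2 (0.0724) or 3 (0.0628) of 1dpi_IVM was left out, and with equal spike-ins the first became -0.37 and the second 0.19. The weaker, axo07545-f_at, read 5.88, 6.28 and 6.23 in 0dpi, 5.28, 5.26 and 5.17 in 1dpi and 5.85, 5.91 and 5.95 in 1dpi_IVM. It was lowest in 1dpi, with differences of -0.90 ± 0.10 (adjusted p = 2.15e-05) and 0.67 ± 0.10 (limma adjusted p = 0.000164), and the shift to equal spike-ins could only enlarge both. KLF11, KLF12 and KLF15 were called in no comparison.

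**Figure D5:**
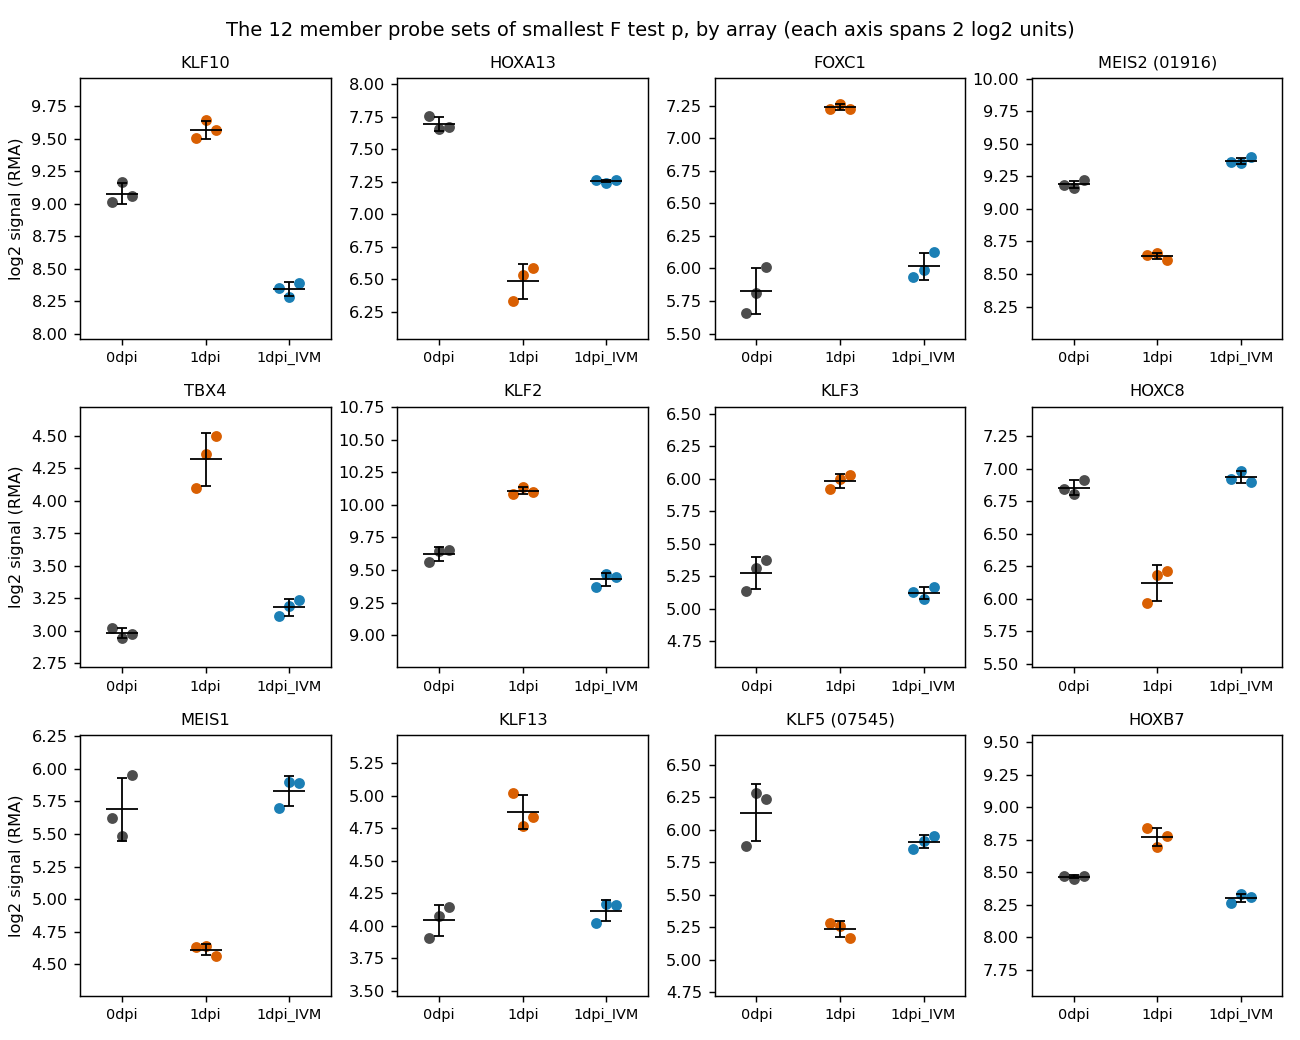
Log2 signals (vertical axes, each spanning 2 log2 units) on the 9 arrays for the 12 probe sets with the smallest p in the F test over the 3 groups, with 1 point per array and a line and bar for the mean and SD of 3 arrays. In all 12 panels the 1dpi arrays lie apart from both other groups, which the choice by F test favours. In those of HOXA13, KLF10, KLF2, HOXB7, TBX4 and MEIS2 no 2 groups overlap, though all 0dpi and 1dpi_IVM arrays of TBX4 lie at or below the control level. Of all tested probe sets, 59.4% (1dpi against 0dpi), 60.4% (1dpi_IVM against 1dpi) and 23.1% (1dpi_IVM against 0dpi) do not overlap.

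Other patterning genes were read from a list of 125 symbols outside these families, of which 49 were measured, 21 of them near the control level. After injury 14 were higher and 11 lower, against 24.7% and 28.2% of all tested probe sets, with a median of 0.03. With ivermectin 10 were higher and 14 lower than 1dpi (against 29% and 25% of all, median -0.04), and 4 were higher and 2 lower than 0dpi (against 2.26% and 3.34%, median -0.01). The homeobox and bHLH factors gave 7 higher and 7 lower of 25 measured after injury, and the zinc finger factors 2 and 2 of 12. Of the retinoic acid and Hedgehog genes 5 were higher and 2 lower of 12 after injury, and 1 was higher and 5 lower with ivermectin. These counts are those of the deposited scale. With equal spike-ins most of the 49 were called lower after injury and higher with ivermectin, as was most of the array. Called higher after injury were then only MYOG, ALDH1A3, ALDH1A1, ZEB2, CRABP1 and OSR1, and lower with ivermectin only MYOG and ALDH1A3. The differences given next kept their sign with equal spike-ins, and falls after injury and rises with ivermectin could only grow. Those called no longer included the rises of CRABP2 (0.14, limma adjusted p = 0.0817) and CYP26B1 (0.0232, 0.884) after injury, the falls of ALDH1A1 (-0.12, 0.0772), CYP26B1 (-0.11, 0.496) and MYF5 (-0.0634, 0.462) with ivermectin and that of SNAI2 against 0dpi (-0.15, 0.162). Other called differences of the genes named next changed sign. With ivermectin CRABP1 went from -0.62 to 0.02, CRABP2 from -0.40 to 0.25 and ZEB2 from -0.61 to 0.04. After injury MYF5 went from 0.47 to -0.08 and ISL1 from 0.48 to -0.07.

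Genes around retinoic acid, a signal that sets HOX domains, differed in opposite ways. CYP26A1, which breaks retinoic acid down, read 7.15, 7.17 and 7.33 in 0dpi, 5.76, 6.03 and 6.20 in 1dpi and 7.64, 7.83 and 7.99 in 1dpi_IVM, with 1dpi lowest and 1dpi_IVM highest. The differences were -1.22 ± 0.12 (adjusted p = 9.42e-06), 1.82 ± 0.12 (adjusted p = 4.42e-07) and 0.60 ± 0.12 (limma adjusted p = 0.0153). ALDH1A3, which makes retinoic acid, read 6.77, 6.60 and 6.64 in 0dpi, 7.81, 7.94 and 7.92 in 1dpi and 6.91, 7.0 and 6.76 in 1dpi_IVM, highest in 1dpi. It rose by 1.22 ± 0.07 and was lower with ivermectin by a difference of -1.0 ± 0.07 (adjusted p = 3.37e-07 and 1.27e-06 in limma). ALDH1A1, read from the stronger of its 2 probe sets only, differed in the same directions by 0.94 ± 0.06 and -0.77 ± 0.06. The retinoic acid carriers CRABP1 and CRABP2 were 0.84 ± 0.05 and 0.68 ± 0.05 higher after injury, and 0.22 ± 0.05 and 0.28 ± 0.05 higher in 1dpi_IVM than in 0dpi (adjusted p = 0.0246 and 0.0152 in limma). CYP26B1, which also breaks retinoic acid down and had a mean signal near the control level, ran opposite to CYP26A1, with a rise of 0.57 ± 0.15 after injury (adjusted p = 0.00991) and a difference of -0.76 ± 0.15 with ivermectin (limma adjusted p = 0.0018).

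ZIC1, a factor of the dorsal cord, read 6.24, 6.34 and 6.24 in 0dpi, 5.21, 4.94 and 4.66 in 1dpi and 6.31, 6.46 and 6.52 in 1dpi_IVM. It fell after injury by 1.34 and was 1.49 ± 0.12 higher with ivermectin than in 1dpi (adjusted p = 5.43e-06 and 2.14e-06 in limma). EMX2, a homeobox gene of forebrain and urogenital tissue, and the bHLH inhibitor ID3 and MSX2 of the dorsal midline had the same pattern, with differences of -1.09, -0.77 and -0.72 after injury and 0.87, 0.98 and 0.66 with ivermectin. MYOG, the factor of muscle differentiation, read 5.85, 5.78 and 5.92 in 0dpi, 7.40, 7.31 and 7.26 in 1dpi and 5.84, 5.47 and 5.87 in 1dpi_IVM and differed by 1.48 ± 0.10 and -1.60 ± 0.10, and MYF5, an earlier muscle factor, by -0.71 with ivermectin. ZEB2, a repressor of epithelial genes, rose by 0.86 ± 0.11. For ZEB2 and SALL4 only the stronger of 2 probe sets was read. Between 1dpi_IVM and 0dpi the motor neuron factor ISL1 was 0.37 ± 0.06 higher, and SALL4, of embryonic stem cells, and SNAI2, of neural crest, were lower (-0.62 ± 0.08 and -0.25 ± 0.06, adjusted p = 0.00159 and 0.0469 in limma).

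Markers of some other tissues moved with these groups. The mean log2 signal of 10 skeletal muscle markers was 10.35 to 10.41 in 0dpi, 12.23 to 12.24 in 1dpi and 10.20 to 10.23 in 1dpi_IVM, with 10 of 10 higher after injury, 10 of 10 lower with ivermectin and 5 of 10 lower in 1dpi_IVM than in 0dpi. That of 10 connective tissue markers was 10.10 to 10.15, 11.02 to 11.08 and 10.02 to 10.06 (8 higher and 2 lower after injury, 2 and 8 with ivermectin), and all 6 measured erythrocyte markers were higher after injury and lower with ivermectin. Of 7 epithelium markers 4 were lower after injury, at 10.72 to 10.77 in 0dpi, 10.49 to 10.53 in 1dpi and 10.63 to 10.66 in 1dpi_IVM. Other lists moved less or in both directions, with 3 higher and 4 lower of 9 cartilage and notochord markers after injury (median -0.06), 2 and 2 of 8 endothelium markers (0.03), 4 and 2 of 9 leukocyte markers (0.04) and 3 and 3 of 6 oligodendrocyte markers (0.09). With ivermectin these lists gave 3 and 2, 2 and 2, 1 and 5, and 3 and 3 in the same order. Of 9 ependymoglia markers 5 were higher and 1 lower after injury (median 0.42), and of 8 neuron markers 6 and 0 (median 0.75). With ivermectin these cord lists gave 3 and 5, and 1 and 5. In 1dpi_IVM against 0dpi they gave 3 and 0, and 4 and 0. On the deposited scale, which these counts use, 24.7% and 28.2% of all tested probe sets were higher and lower after injury. The shares were 29% and 25% with ivermectin, and 2.26% and 3.34% in 1dpi_IVM against 0dpi. Equal spike-ins lower each difference after injury by 0.55 and raise each with ivermectin by 0.65. The ependymoglia median after injury and the neuron median with ivermectin (-0.40) then change sign, and those of muscle, connective tissue and erythrocytes keep it. Cord markers were present in every group, with 9 ependymoglia markers at 8.33 to 8.45, 8.59 to 8.70 and 8.50 to 8.56 and 8 neuron markers at 6.84 to 6.88, 7.58 to 7.60 and 7.02 to 7.06, 2 of the latter near the control level. No muscle, connective tissue, epithelium or ependymoglia marker lay near that level, so signals of tissues other than cord were present in every group. The part of these shifts in the differences of FOXC1, TBX4, TBX15, KLF3, KLF5, HOXA13, MEIS1 or MYOG was not tested, and in such tissue fewer cells of a type and less RNA per cell cannot be told apart. Arrays of 1 group correlated at 0.997 to 0.999, 0dpi with 1dpi_IVM at 0.996 to 0.997, 0dpi with 1dpi at 0.971 to 0.972 and 1dpi with 1dpi_IVM at 0.967 to 0.968 over all tested probe sets.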

How the data were processed

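RNA of 9 pools, 3 for each group, had been hybridised to Affymetrix axolotl arrays. The authors deposited log2 signals from RMA, in which background is subtracted, the probe signals of the arrays are given equal distributions and the probes of each probe set are combined into 1 value. Affymetrix Expression Console is named beside RMA in the submitters' processing notes. For both, the version is not given in the sources used here. Values lay between 2.65 and 14.6, and none was missing. The array annotation paired 10951 of 20035 probe sets with 1 gene symbol, and all 60 member symbols were also in RefSeq. The 45 control probe sets (24 poly-A, 18 hybridization and 3 negative) were left out of the tests. Each probe set was tested on its own. An array has no read depth, so the number of arrays limits the precision.

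Groups came from the sample titles. All 20035 probe sets were fitted in R 4.3.3 with limma 3.58.1, with 1 coefficient per group over all 9 arrays, no trend and 2-sided tests, with Benjamini-Hochberg adjustment over all of them. The methods of the study name an unadjusted P value and a fold limit but no test. The fit was tested on simulated data. The 3 comparisons were 1dpi against 0dpi, 1dpi_IVM against 1dpi and 1dpi_IVM against 0dpi. Nothing in the labels says how the pools of a group were separated beyond their animals. Genes with several probe sets in the lists of other patterning genes and tissue markers were read from the probe set with the highest mean.

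Named members were every HOX probe set, the 10 largest called rises and falls of each comparison with groups that did not overlap, the smallest F test p and the highest mean of each family, and a fixed set of cord, blood and epithelium factors. From the other patterning genes the 5 largest called rises and falls were named. Members that make up small counts, such as TBX5, and CRABP2 and further uncalled members were named after their values were seen. The members and lists were chosen with earlier results of these data known. Deviations from the group means correlated at -0.22 to 0.23 for same-numbered arrays of different groups and at -0.16 to 0.20 for others. With so few arrays this neither showed nor excluded a pairing by replicate number. Alternatives were another quantile step, median and spike-in centring, filters on dim probe sets, a trend and robust fit, only the 2 groups compared, a replicate block, other call rules, 1 probe set per gene and each array left out. No sequence of the array's probes was used here.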

Additional observations from a re-analysis of the deposited data

How the results depend on the processing

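The numbers of members called higher and lower were 19 and 7 in the first comparison (1dpi against 0dpi), 10 and 19 in the second (1dpi_IVM against 1dpi) and 2 and 4 in the third (1dpi_IVM against 0dpi). Spike-in centring gave 3 and 56, 57 and 4, and 4 higher in the third. Of all called probe sets, 6.95%, 94% and 82.4% were then higher in the 3 comparisons, beside 5.08%, 93.4% and 57.1% of the called members. Median centring gave 6 and 29 in the second comparison and 1 higher in the third, and another quantile step 1 higher in the third. Leaving out the dimmest 50% of probe sets, which removes members, gave 10 and 3 in the first and 4 higher in the second. The fit of only the 2 groups compared and the use of 1 probe set per gene each gave 1 higher in the third. For median centring, another quantile step, the dim filter and these 2 settings the shares of all called probe sets are not given here. The number of members left by the dim filter is not given either. The 2-fold limit gave 2 and 2, 1 and 3, and 0 and 0, with adjusted or unadjusted p and TBX4 counted by its fitted value. An unadjusted p below 0.05 alone gave 5 and 11 in the third, with no share of all probe sets to set beside it. With each array left out in turn the counts ran from 15 to 19 and 6 to 8, from 6 to 8 and 16 to 23, and from 0 to 1 and 3 to 5. Shares of all tested probe sets are not given for these fits. With the replicate block the third comparison had 0 higher, as the MEIS2 probe sets axo01916-f_at (adjusted p = 0.109 in limma) and axo01918-f_at (0.0605) lost their calls. Whether the replicate numbers pair the arrays is not known. Of the members, 9 lay at or below the highest negative control mean, 17 within 0.5 and 40 within 2, beside 29 within 1.

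Spike-in centring turned the direction of 26 called differences of named members. For 1dpi against 0dpi these became -0.17 (FOXK1), -0.37 (FOXK2), -0.20 (HOXA4), -0.27 (HOXA5), -0.18 (HOXB6), -0.24 (HOXB7), -0.26 (HOXD11), -0.0555 (KLF10), -0.0588 (KLF2), -0.33 (KLF4), -0.37 (KLF5, axo07544-r_at), -0.0536 (MEIS2, axo01917-f_at), -0.0419 (PBX3) and -0.21 (TBX15). For 1dpi_IVM against 1dpi they became 0.34 (FOXK1), 0.32 (FOXK2), 0.0344 (FOXO1), 0.44 (GATA3), 0.24 (HOXB6), 0.18 (HOXB7), 0.37 (HOXD10), 0.40 (HOXD11), 0.19 (KLF5, axo07544-r_at), 0.0502 (MEIS2, axo01917-f_at), 0.21 (PBX3) and 0.41 (TBX15). The cause was not tested. Under the other settings, each array left out included, no called difference of a named member changed direction. Signals within 1 log2 unit of the negative control level limit what 29 members can show.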
